A study of Mus musculus with 27 samples.

Results

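The comparison was between C2C12 cells that expressed the Δpro#3 mutant of NFIA and control cells at day 7 of differentiation, and its members were the 3 mutant and the 3 control samples at day 7 without forskolin, 6 of the 27 samples of the series, with all genes of the files considered. C2C12 cells are an established line of mouse myoblasts, which fuse into muscle fibers when growth factors are withdrawn. Mutant cells carried a pMXs retrovirus for 3xFLAG-tagged NFIA that lacked pro#3, a proline-rich stretch at the C terminus, and full-length NFIA-expressing cells, given here only for comparison, one for the tagged whole protein. What the virus of the control cells carried is not given in the sources used here. By day 7 all 3 kinds of cells, controls included, had been kept for 48 h in adipogenic medium (10% FBS with IBMX at 0.5 mM, indomethacin at 125 nM, dexamethasone at 1 µM, insulin at 850 nM, T3 at 1 nM and rosiglitazone at 1 µM) and then in FBS with insulin, T3 and rosiglitazone. Day 0 samples and samples of day 7 that had received 10 µM forskolin during 4 h exist for each kind of cells, so that the series has 9 groups of 3 replicates. The line and the viral transduction limit these groups as a model, since each construct was overexpressed from a virus in 1 cell line. The labels do not say whether replicates were separate cultures, so that the p-values measure the spread between these samples, which may be technical.

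NFIA belongs to the nuclear factor I family, whose members bind DNA as dimers at the palindrome of TTGGC and GCCAA through a conserved N-terminal domain and act on transcription through the C-terminal part. In fat precursor cells NFIA promotes the adipocyte and brown fat programs, of which PPARγ is the master regulator. Myoblasts follow a different program, in which the bHLH factors MyoD, myogenin, Myf5 and Myf6 together with MEF2 proteins switch on the genes of the sarcomere, the contractile unit of muscle, and of cell fusion.

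Values are FPKM, which are fragments of a gene divided by its length and by the total of the sample, and changes are log2 differences of FPKM + 1, mutant minus control, from a limma fit to the 9 samples at day 7. The pseudocount of 1 makes the change of genes near 0 FPKM smaller than the ratio of their FPKM. Genes are termed called when the change passed 3-fold and the adjusted p-value was below 0.05. The 6 samples held 11310146 to 21941908 fragments. Nfia, on chr4:97439425-97868605 of mm9, was listed at 0.0885, 0.253 and 0.0885 FPKM in the 3 control samples and 480.5, 383 and 374 FPKM in the 3 mutant samples, which fits the labels of all 6 samples. Reads from the viral and the endogenous gene cannot be told apart in these values.

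Before the results, a difference between libraries has to be stated. The headers of the files number the libraries in 1 series, and the control libraries at day 7 are the last 3 of the first 12, together with all day 0 libraries, whereas the mutant libraries at day 7 are among the later 15, together with all forskolin libraries. The numbers run from 164 to 190 with no gap, so the headers themselves mark no break. The cut after the last control library at day 7 was placed for this comparison, and no other cut was tried. Of the 12324 genes tested, 233 were higher in every one of the first 12 libraries than in any of the later 15, and 71 were lower. Of the genes called below, 8 lower and 8 higher ones split in this way, among the latter C3 and Serping1. Rpl14-ps1, a pseudogene copy of a ribosomal protein gene, lay between 36.5 and 87.3 FPKM in the first 12 libraries and between 4.37 and 12.5 FPKM in the later 15, whatever the construct. It was the gene with the largest fall in the comparison at day 7, at -3.17, and its change between mutant and control cells with forskolin was -0.16. What the numbers stand for is not given in the sources used here, and at day 7 without forskolin the library number and the construct cannot be told apart. With forskolin both groups are among the later 15 libraries, so the change in those separate libraries is given beside several of the results below, with the reservation that the cells had been treated with forskolin. The labels do not say whether they came from the same cultures as the libraries without forskolin.

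Of the 12324 genes tested, 115 (0.933%) were called higher and 62 (0.503%) lower in mutant than in control cells. With the adjusted p-value alone, 2620 genes (21.3%) were higher and 3393 (27.5%) lower, so that most differences were small. The median change of all genes tested was -0.04. All 115 and all 62 called genes had no overlap between the 3 samples of each group, as did 57.9% of all genes tested. The plot of change against expression level shows that the genes called higher reached larger changes than those called lower.

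**Figure D1:**
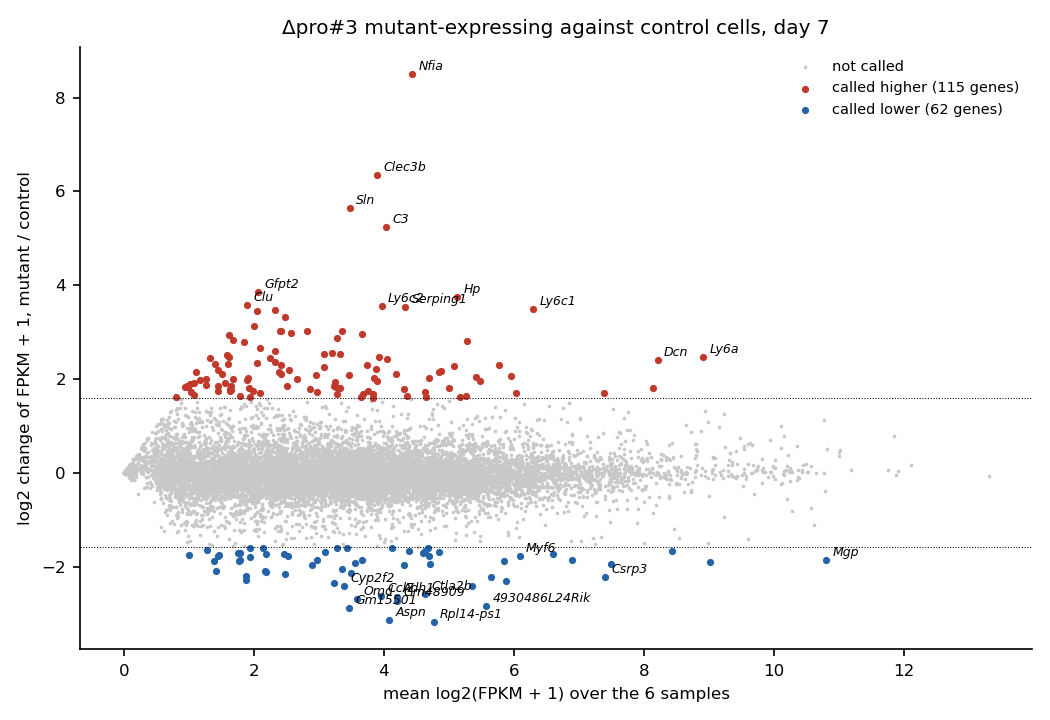
Change of each of the 12324 genes tested at day 7 (vertical axis, log2 of FPKM + 1 in mutant over control cells) against its mean log2(FPKM + 1) over the 6 samples (horizontal axis), with red and blue points for the 115 genes called higher and the 62 called lower and dotted lines at a 3-fold change. Red points reach 6.35 for Clec3b and 8.49 for the introduced Nfia, whereas the lowest blue point, Rpl14-ps1, is at -3.17.

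Of the 115 genes called higher, 114 were tested with forskolin. All 114 were higher in mutant cells there too, 108 with an adjusted p-value under 0.05 and 74 also by more than 3-fold. In the whole of the forskolin comparison, 19.5% of genes were higher and 27.1% lower with an adjusted p-value under 0.05, and 0.866% and 0.685% were called higher and lower. Of the 62 genes called lower, 59 were lower with forskolin, 55 with an adjusted p-value under 0.05 and 40 by more than 3-fold. The 7 that did not pass were Rpl14-ps1, Gm15501, Gm48909, Rpl37rt, Gm6402, Gm15421 and Mir682, all of them features that split by library number. They are therefore not read as changes with the mutant below, although they remain in all later counts of the genes called lower. The genes called higher that did not pass with forskolin were Adipoq, Cxcl12, Fabp4, Plin1, Retn and Snord42a. Both sets were named after their values had been seen.

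After Nfia itself, the largest rises were in Clec3b, Sln and C3. Clec3b, which encodes tetranectin, a secreted lectin that binds plasminogen, was at 0.397, 0.719 and 0.86 FPKM in the 3 control samples and 156, 136 and 111 FPKM in the 3 mutant samples, a change of 6.35 ± 0.13 (SE), adjusted p = 1.93e-09. It lies on chr9:123060064-123066548 in mm9 and rested on 28 control and 6664 mutant fragments. All 3 mutant samples were far above all control samples, and full-length NFIA-expressing cells reached a mean of 358 FPKM, a difference of mutant minus full-length NFIA of -1.42 (adjusted p = 4.74e-06). Sln, on chr9:53698058-53701651, encodes sarcolipin, a small membrane protein that inhibits the calcium pump of the sarcoplasmic reticulum. It was at 0.252, 0.457 and 1.15 FPKM in the 3 control samples and 101, 75.6 and 62.3 FPKM in the 3 mutant samples, a change of 5.65 ± 0.31 (SE), adjusted p = 1.01e-06, on 13 control and 2030 mutant fragments. Full-length NFIA-expressing cells had 9.12 FPKM of Sln, and the difference of mutant minus full-length NFIA was 3.06 (adjusted p = 1.31e-05). The calcium pump itself, Atp2a1, had means of 618 FPKM in control and 632 FPKM in mutant cells, a difference of 0.03 that did not pass (adjusted p = 0.817).

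C3, the central component of the cascade, was at 1.51, 1.75 and 1.73 FPKM in the 3 control samples and 169, 79.7 and 73.2 FPKM in the 3 mutant samples, a change of 5.24 ± 0.25 (SE), adjusted p = 3.63e-07. Replicate 1 of the mutant was the highest, and all 3 mutant samples were above every control sample. Serping1, the C1 inhibitor, was at 3.75, 5.62 and 5.53 FPKM in the 3 control samples and 84.7, 61.5 and 59.1 FPKM in the 3 mutant samples, a change of 3.54 ± 0.15 (SE), adjusted p = 1.80e-07. Clu, which encodes clusterin, an extracellular chaperone that restrains the terminal complement complex, changed by 3.58 (adjusted p = 4.09e-08), with only 6 control fragments in all. Of the 8 complement genes tested, 3 were called higher and 7 were higher with an adjusted p-value under 0.05, and the median was 1.41 against -0.04 for all genes. Among all genes tested these shares were 0.933% and 21.3%. With forskolin the changes of C3, Serping1 and Clu were 3.84, 2.91 and 3.17. There 6 of 8 complement genes were higher and 1 lower with an adjusted p-value under 0.05, beside 19.5% and 27.1% of all genes.

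Hp, which encodes the hemoglobin-binding protein haptoglobin, was at 4.59, 11.4 and 11.5 FPKM in the 3 control samples and 286, 87 and 81 FPKM in the 3 mutant samples, a change of 3.74 ± 0.45 (SE), adjusted p = 1.13e-04. Its replicate 1 was over 3 times as high as replicates 2 and 3. Ly6c1 and Ly6c2, neighbouring genes of GPI-anchored surface proteins with near-identical copies whose reads are hard to divide, changed by 3.49 and 3.55. Ly6a, better known as Sca-1, a marker of mesenchymal progenitors, was at 177, 234 and 204 FPKM in the 3 control samples and 1325, 1001 and 1091 FPKM in the 3 mutant samples, a change of 2.47 ± 0.13 (SE), adjusted p = 5.71e-07. Full-length NFIA-expressing cells had 519 FPKM on average, a difference of mutant minus full-length NFIA of 1.13 (adjusted p = 2.44e-05). Cd34, a surface protein of progenitor cells, changed by 2.17 (adjusted p = 1.33e-07). The other 5 progenitor markers tested were not called, among them Pdgfrb, at -0.35 with overlapping groups (adjusted p = 0.0398), and Vcam1, at -0.69 (adjusted p = 1.17e-04). Of the 7 tested, 2 were higher and 3 lower with an adjusted p-value under 0.05 and the median was -0.04. The shares of all genes tested were 21.3% and 27.5%, and 0.933% were called higher. Gfpt2, the first enzyme of the hexosamine pathway, was at 0.066, 0.0796 and 0.143 FPKM in the 3 control samples and 17.5, 12.9 and 14.6 FPKM in the 3 mutant samples, on 12 and 2212 fragments, a change of 3.86 (adjusted p = 1.60e-08).

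**Figure D2:**
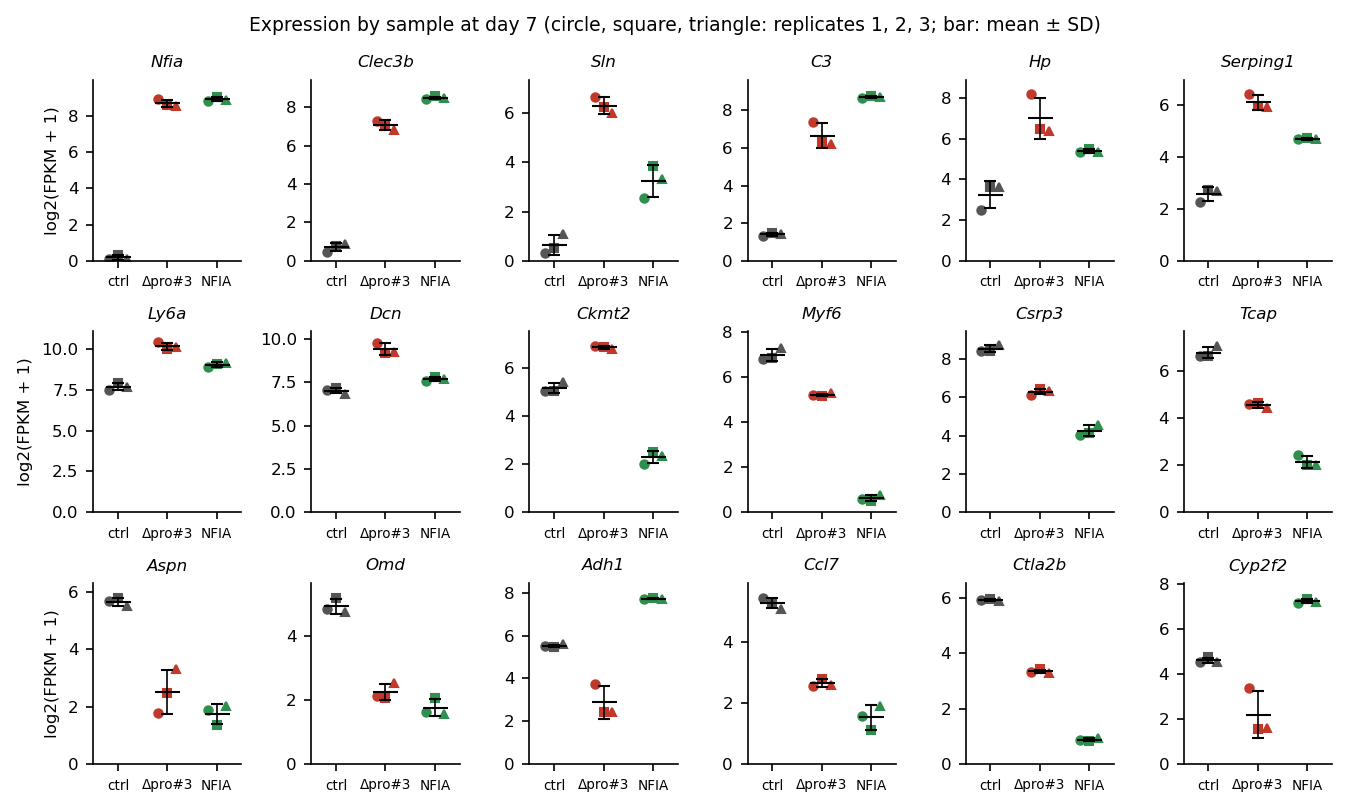
Expression of 18 genes in each sample at day 7 (vertical axes, log2 of FPKM + 1) for control, Δpro#3 mutant-expressing and full-length NFIA-expressing cells, with 1 symbol for each replicate and the mean ± SD of the 3. Sln, Hp, Serping1, Ly6a, Dcn and Ckmt2 are highest in the mutant cells, Myf6, Csrp3 and Tcap step down from control through mutant to full-length NFIA-expressing cells, and Adh1 and Cyp2f2 are lowest in the mutant cells.

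Among the falls, the extracellular proteins asporin and osteomodulin stood out. Aspn was at 50.4, 53.6 and 44.4 FPKM in the 3 control samples and 2.41, 4.54 and 8.91 FPKM in the 3 mutant samples, a change of -3.14 ± 0.32 (SE), adjusted p = 3.87e-05. Omd was at 27.6, 35.7 and 25.9 FPKM in the 3 control samples and 3.34, 3.2 and 4.79 FPKM in the 3 mutant samples, a change of -2.69 ± 0.17 (SE), adjusted p = 2.19e-06. Both are small leucine-rich proteoglycans, which bind collagen, and both were well separated between the groups. Others of the same family went the opposite way. Dcn, decorin, was at 131, 140.3 and 114 FPKM in the 3 control samples and 879, 581 and 614 FPKM in the 3 mutant samples, a change of 2.40 ± 0.14 (SE), adjusted p = 1.63e-06, and Prelp changed by 2.43. Of the 23 proteoglycan and elastic fibre genes tested, 5 were called higher (Eln, Prelp, Dcn, Mfap5 and Loxl2) and 3 lower (Aspn, Omd and Ltbp2), while the median was -0.11. At an adjusted p-value under 0.05, 10 were higher and 7 lower. The shares of all genes tested were 0.933% and 0.503% called, and 21.3% and 27.5% by the adjusted p-value. Dcn, Mfap5, Loxl2 and Ltbp2 were named after their values had been seen. Eln, which encodes elastin, changed by 2.84, and Bgn and Ogn, the most abundant members not called, fell by 0.94 and 1.39 on the log2 scale with adjusted p-values of 1.71e-05 and 1.63e-04. With forskolin the changes of Aspn, Omd, Dcn and Eln were -2.66, -3.22, 1.99 and 2.87.

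Adh1 and Cyp2f2 moved in opposite directions with the 2 constructs. Adh1, a class I alcohol dehydrogenase, was at 44.2, 43.2 and 47 FPKM in the 3 control samples and 12.5, 4.43 and 4.44 FPKM in the 3 mutant samples, a change of -2.64 ± 0.28 (SE), adjusted p = 5.49e-05, while full-length NFIA-expressing cells held 206, 217 and 209.8 FPKM. Cyp2f2, a cytochrome P450, was at 22.3, 25.8 and 22.1 FPKM in the 3 control samples and 9.52, 1.93 and 2.05 FPKM in the 3 mutant samples, a change of -2.42 ± 0.39 (SE), adjusted p = 6.85e-04, and at 143, 162 and 146 FPKM with full-length NFIA. In both genes replicate 1 of the mutant was higher than replicates 2 and 3, although below every control sample. The difference between the constructs passed the test, at -4.85 for Adh1 and -5.06 for Cyp2f2 (adjusted p = 1.79e-07 and 1.56e-06). The feature 4930486L24Rik fell by 2.85, and Ctla2b, which is close in sequence to Ctla2a so that reads of the pair may be divided wrongly, by 2.58 on the log2 scale.

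Between the 2 constructs themselves, 456 genes (3.7%) were called lower and 320 (2.6%) higher with the Δpro#3 mutant than with full-length NFIA at day 7. Of the 115 genes called higher than in control cells, 32 were called higher still with full-length NFIA and 29 were called lower with it, among them Sln, and 14 did not pass in either direction. Of the 62 genes called lower, 10 were called lower still with full-length NFIA and 4 were called higher with it. Both comparisons use the same mutant samples.

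Most genes of the contractile apparatus were expressed in mutant cells at levels within 3-fold of those in control cells. The summed FPKM of 18 thin filament genes was 15334, 15366 and 18130.5 in the 3 control samples and 18847, 18816 and 17987 in the 3 mutant samples. The lists of sarcomere and calcium handling genes had medians of -0.30 for 17 myosin chains and myosin-binding proteins, 0.07 for 18 thin filament proteins, -0.18 for 31 titin, Z-disc and M-line proteins and -0.26 for 20 genes of excitation-contraction coupling. At an adjusted p-value under 0.05 with no threshold on the fold, of the myosin list 2 were higher and 9 lower, of the thin filament list 6 and 5, of the titin, Z-disc and M-line list 6 and 14, and of the excitation-contraction list 4 and 9. With forskolin these were 2 and 10, 4 and 8, 3 and 20, and 2 and 12. Of all genes, 21.3% were higher and 27.5% lower without forskolin, and 19.5% and 27.1% with it. The same lists had medians of -2.74, -2.78, -2.68 and -2.33 with full-length NFIA against the same controls. In bulk RNA, fewer muscle cells and less RNA per muscle cell cannot be told apart. Mylpf, the fast regulatory light chain, was at 3216, 3173 and 3738 FPKM in the 3 control samples and 3413, 3679.5 and 3502 FPKM in the 3 mutant samples, with overlapping groups and a difference of 0.07 (adjusted p = 0.635). Tnnc1, troponin C, was at 2214, 2092 and 2559 FPKM in the 3 control samples and 2403, 2489 and 2273 FPKM in the 3 mutant samples, again overlapping. Acta1, skeletal α-actin, was higher, at 2582, 2828 and 3066 FPKM in the 3 control samples and 5099, 4682 and 4715 FPKM in the 3 mutant samples, a change of 0.78 ± 0.10 (SE), adjusted p = 2.07e-04 that is under 3-fold.

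**Figure D3:**
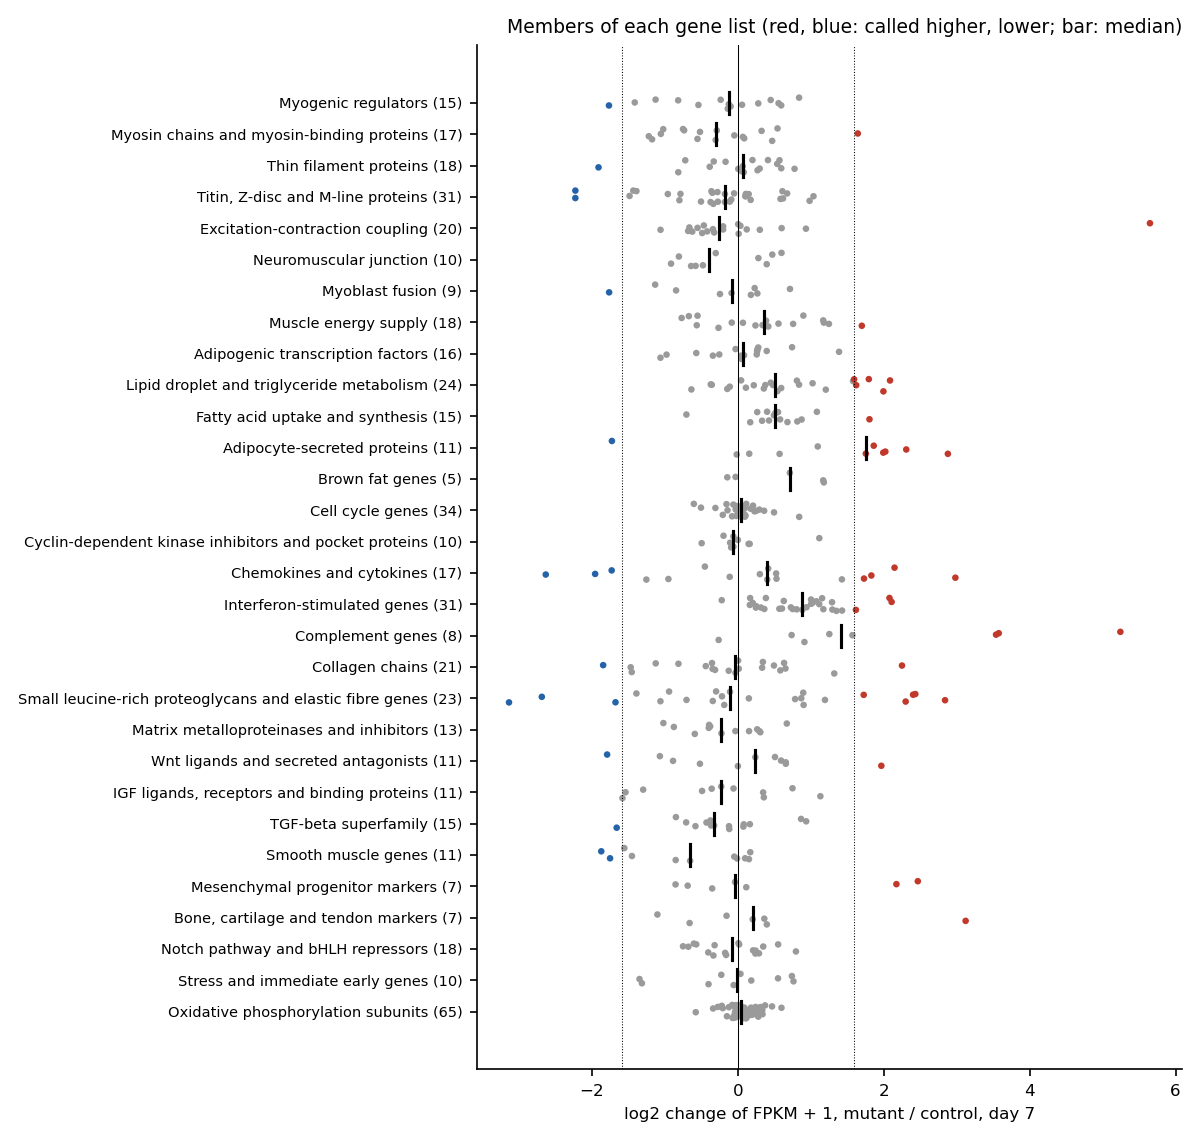
Change of the members of each gene list with at least 5 genes tested (horizontal axis, log2 of FPKM + 1 in mutant over control cells, day 7), 1 point for each gene, with the number tested in brackets, a black bar at the median and dotted lines at a 3-fold change. Nfia itself is left out, red and blue points are genes called higher and lower, and the medians of the 8 skeletal muscle lists lie between -0.39 and 0.36 and that of smooth muscle genes is at -0.66, whereas those of interferon-stimulated, complement and adipocyte-secreted genes are 0.88, 1.41 and 1.75.

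Of the muscle lists, the genes called lower were Csrp3, Tcap, Tmod4, Mymx and Myf6. Csrp3, the muscle LIM protein of the Z-disc, was at 336, 341 and 424 FPKM in the 3 control samples and 69.2, 83.4 and 79.3 FPKM in the 3 mutant samples, a change of -2.23 ± 0.14 (SE), adjusted p = 2.19e-06. Tcap, telethonin, which caps titin at the Z-disc, was at 97.4, 98.3 and 131 FPKM in the 3 control samples and 22.9, 23.8 and 20.1 FPKM in the 3 mutant samples, a change of -2.23 ± 0.14 (SE), adjusted p = 2.19e-06. Each mutant sample was under every control sample by a wide margin. Tmod4, which caps the pointed end of thin filaments, fell by 1.91 and Mymx, the fusion peptide myomixer, by 1.77 on the log2 scale. Without replicate 1 of the mutant, Mymx was just under 3-fold lower, at -1.58. Mymk, its partner in fusion, had means of 378 and 210.3 FPKM, a fall of 0.85 that is under 3-fold (adjusted p = 0.00135). Of 9 fusion genes Mymx alone was called, with 3 higher and 4 lower at an adjusted p-value under 0.05. The shares of all genes tested were 0.503% called lower, and 21.3% higher and 27.5% lower by the adjusted p-value. With forskolin, Csrp3, Tcap, Tmod4 and Mymx changed by -2.69, -2.47, -2.07 and -1.19.

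Of the myogenic regulators, 1 of 15 was called. Myf6, also known as MRF4, was at 109.7, 114 and 156 FPKM in the 3 control samples and 35.3, 34.9 and 37.7 FPKM in the 3 mutant samples, a change of -1.77 ± 0.12 (SE), adjusted p = 3.58e-06. Full-length NFIA-expressing cells had 0.544 FPKM on average, and the difference of mutant minus full-length NFIA was 4.58 (adjusted p = 1.11e-09). Myog, myogenin, was at 1254, 1198 and 1374 FPKM in the 3 control samples and 349, 584 and 533 FPKM in the 3 mutant samples, a fall of 1.41 on the log2 scale that is under 3-fold (adjusted p = 2.59e-04), and Myod1 was at 71.3, 67.2 and 81 FPKM in the 3 control samples and 33.9, 50.2 and 40.2 FPKM in the 3 mutant samples, a fall of 0.82 (adjusted p = 0.00332). Of the 15 regulators, 4 were higher and 6 lower with an adjusted p-value under 0.05, and the median of the list was -0.13. The shares of all genes tested were 21.3% and 27.5%, and 0.503% were called lower. With forskolin 3 of the 15 were higher and 7 lower, beside 19.5% and 27.1% of all genes. Replicate 1 of the mutant had the lowest level of Myog. Myl4 and Myh8, a light and a heavy chain of developing muscle, fell by 0.55 and 0.52 on the log2 scale.

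Besides Sln, the members of the muscle lists called higher were Ckmt2 and Myh2. Ckmt2, the mitochondrial creatine kinase of muscle, was at 32, 32.8 and 41.8 FPKM in the 3 control samples and 120.2, 118 and 112 FPKM in the 3 mutant samples, a change of 1.70 ± 0.13 (SE), adjusted p = 6.03e-06. Eno3, the muscle enolase, was at 360.4, 386 and 421 FPKM in the 3 control samples and 960.1, 912 and 899.8 FPKM in the 3 mutant samples, a change of 1.25 ± 0.08 (SE), adjusted p = 3.11e-06 that is under 3-fold. Of 18 genes of muscle energy supply, 10 were higher and 4 lower with an adjusted p-value under 0.05, and the median was 0.36. Among all genes tested, 21.3% were higher and 27.5% lower. Myh2, the myosin heavy chain of fast oxidative fibers, was at 18.4, 20.1 and 24.1 FPKM in the 3 control samples and 88.3, 59.5 and 56.8 FPKM in the 3 mutant samples, a change of 1.64 ± 0.18 (SE), adjusted p = 6.23e-05, which was just under 3-fold without replicate 1 of either group (1.56 without that of the control and 1.44 without that of the mutant). Art1, an ADP-ribosyltransferase of skeletal muscle named here after its values were seen, changed by 2.28. With forskolin, Ckmt2, Eno3, Myh2 and Art1 changed by 1.44, 1.13, 0.80 and 2.37. In those libraries 8 of 17 genes of muscle energy supply were higher and 6 lower with an adjusted p-value under 0.05. The median of the list was 0.24 there, and 19.5% of all genes were higher and 27.1% lower. The 65 subunits of oxidative phosphorylation tested had a median of 0.05 and none was called. At an adjusted p-value under 0.05, 16 were higher and 5 lower, beside 21.3% and 27.5% of all genes tested.

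Promoters were searched for the E-box CAGCTG, bound by MyoD family factors, for the MEF2 site, for the CArG box, bound by serum response factor, and for sites of the NFI family. Promoters were the 250 bases before to 50 bases after the start in RefSeq (GRCm38.p6), both strands were searched, and matches of different motifs were allowed to overlap. CAGCTG was in 28.8% of the promoters of genes called higher (19 of 66 with a promoter), 32.5% of those called lower (13 of 40), 39.2% of the sarcomere genes (20 of 51), 18% of all genes tested and 16.3% of all 32851 promoters. A gene was counted when any of its promoters had the motif, whereas shares of all promoters count each promoter. The CArG box was in 0 of 66 genes called higher, 2 of 40 (5.0%) of those called lower, 9.80% of the sarcomere genes, 1.66% of all genes tested and 1.63% of all promoters. The MEF2 site was in 9.09% of genes called higher, 5.0% of those called lower, 17.6% of the sarcomere genes, 2.30% of all genes tested and 3.19% of all promoters. Of the NFI motifs, the palindrome of TTGGC and GCCAA with 5 bases between was in none of the 66 and none of the 40 genes. It was in 0.0422% of all genes tested and 0.0365% of all promoters. The shorter TTGGCA was in 15.2% of genes called higher, 22.5% of those called lower, 25.5% of the sarcomere genes, 13.4% of all genes tested and 14.1% of all promoters. The windows of Ckmt2 (chr13:91876960-91877019, minus strand), Art1 (chr7:102101646-102101705, plus strand), Acta1 (chr8:123894814-123894873, minus strand) and Myl9 (chr2:156775278-156775337, plus strand) show such matches in genes that rose and in 1 that fell. They are written 5′ to 3′ on the strand of the gene, with the match in capitals.
Ckmt2: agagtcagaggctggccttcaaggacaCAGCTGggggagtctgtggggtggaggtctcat
Art1: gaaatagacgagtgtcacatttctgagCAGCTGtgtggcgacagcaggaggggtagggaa
Acta1: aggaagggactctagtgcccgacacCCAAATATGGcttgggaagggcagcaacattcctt
Myl9: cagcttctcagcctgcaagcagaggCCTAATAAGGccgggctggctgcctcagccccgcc

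Myl9, the regulatory light chain of smooth muscle and non-muscle myosin, was at 112, 107 and 108 FPKM in the 3 control samples and 33.6, 28.8 and 25.2 FPKM in the 3 mutant samples, a change of -1.87 ± 0.19 (SE), adjusted p = 3.43e-05. The integrin Itga8, another gene of the smooth muscle list, fell from 679 fragments in control to 27 in mutant samples, by 1.75 on the log2 scale. Tagln, transgelin, had means of 194 and 70.9 FPKM, a change of -1.45 that is under 3-fold. Acta2, smooth muscle α-actin, was the most abundant of the list, at 1149, 1157 and 1056 FPKM in the 3 control samples and 1244, 1274 and 1214 FPKM in the 3 mutant samples, with a difference of 0.15 (adjusted p = 0.294). Of 11 smooth muscle genes, 2 were called lower and 6 were lower with an adjusted p-value under 0.05, none was higher, and the median was -0.66. Without replicate 1 of the mutant, 4 were called lower. With all samples, 0.503% of all genes tested were called lower and 27.5% were lower with an adjusted p-value under 0.05. With forskolin 2 of 10 smooth muscle genes were higher and 6 lower with an adjusted p-value under 0.05. There 4 were called lower and the median was -0.49. The shares of all genes with forskolin were 19.5% higher, 27.1% lower and 0.685% called lower.

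Interferon-stimulated genes were higher as a list. Among all genes tested, 21.3% were higher and 27.5% lower with an adjusted p-value under 0.05, and the median was -0.04. Of the 31 tested, 24 were higher with an adjusted p-value under 0.05, none was lower, and the median change was 0.88. Of these, 3 passed 3-fold. Irf7, the transcription factor that amplifies type I interferon, was at 1.48, 1.66 and 1.61 FPKM in the 3 control samples and 16.2, 8.97 and 7.02 FPKM in the 3 mutant samples, a change of 2.11 ± 0.22 (SE), adjusted p = 4.58e-05. Ifit3, an inhibitor of viral RNA translation, was at 4.17, 4.22 and 4.78 FPKM in the 3 control samples and 32.1, 19.4 and 16.4 FPKM in the 3 mutant samples, a change of 2.08 ± 0.19 (SE), adjusted p = 1.94e-05. Oasl2 changed by 1.62 and was under 3-fold without replicate 1 of the mutant (1.26), without replicate 1 of the control (1.57) and without replicate 3 of the control (1.58). The most abundant members, B2m and Ifitm3, changed by 0.36 and 0.38. Full-length NFIA-expressing cells had 1.43 FPKM of Irf7 and 1.38 FPKM of Ifit3, the differences of mutant minus full-length NFIA were 2.20 (adjusted p = 1.07e-05) and 3.25 (adjusted p = 1.71e-07), and the list had a median of -0.09 with full-length NFIA. In the forskolin libraries 24 of 30 members were higher in mutant than in control cells with an adjusted p-value under 0.05 and 1 was lower, with a median of 0.60. Among all genes there, 19.5% were higher and 27.1% lower. Replicate 1 of the mutant was the highest of the 3 in 30 of the 31 genes.

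A pair of GAAA with 2 bases between, the core of the element through which interferon acts on promoters, was searched on both strands in the same RefSeq promoters. It was in 13 of the 25 list members with a promoter (52.0%), against 3.5% of all genes tested and 3.44% of all promoters. Of the genes called higher, 6.06% had it (4 of 66). The share in the list describes the promoters of its members and not their change in mutant cells. The windows of Ifit3 (chr19:34583382-34583441, plus strand), Ifit1 (chr19:34640779-34640838, plus strand) and Isg15 (chr4:156200850-156200909, minus strand) show the match in capitals, read 5′ to 3′ on the strand of the gene. Ifit1 and Isg15, chosen for their matches, changed by 1.01 and 1.35.
Ifit3: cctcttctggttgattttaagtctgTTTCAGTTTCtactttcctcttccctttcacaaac
Ifit1: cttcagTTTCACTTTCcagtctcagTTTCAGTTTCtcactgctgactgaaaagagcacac
Isg15: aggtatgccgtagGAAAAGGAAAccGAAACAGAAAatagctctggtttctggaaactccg

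Of 17 chemokine and cytokine genes, 4 were called higher (Ccl5, Cxcl12, Cxcl14 and Il33) and 3 lower (Ccl7, Ccl11 and Ccl2). Among all genes tested, 0.933% were called higher and 0.503% lower. Ccl5, an attractant of T cells, was at 1.61, 1.01 and 0.803 FPKM in the 3 control samples and 19.1, 12 and 16.7 FPKM in the 3 mutant samples, a change of 2.98 ± 0.26 (SE), adjusted p = 1.69e-05. Ccl7, a monocyte attractant, was at 42.3, 38.3 and 33.4 FPKM in the 3 control samples and 4.87, 5.93 and 5.02 FPKM in the 3 mutant samples, a change of -2.63 ± 0.17 (SE), adjusted p = 2.78e-06. Ccl11, which attracts eosinophils, fell by 1.96 on the log2 scale. Cxcl12, the ligand of CXCR4, was at 12.1, 14.2 and 12 FPKM in the 3 control samples and 90.0, 48.3 and 49.3 FPKM in the 3 mutant samples, a change of 2.15 ± 0.20 (SE), adjusted p = 2.11e-05, but of 0.57 with forskolin (adjusted p = 0.0568). Its receptor Cxcr4 fell by 0.95, under 3-fold. Ccl2, close to Ccl7 in sequence and place, fell from a mean of 9.34 to 2.1 FPKM. At an adjusted p-value under 0.05, 9 genes of the list were higher and 6 lower, with a median of 0.40, whereas with forskolin 5 were higher and 10 lower, with a median of -0.54. The shares of all genes were 21.3% and 27.5% without forskolin and 19.5% and 27.1% with it. The changes with forskolin were 1.47 for Ccl5, 2.07 for Cxcl14, 3.34 for Il33, -1.78 for Ccl7 and -1.50 for Ccl2.

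Of the adipocyte lists, those of lipid droplets, fatty acids and secreted proteins had medians above 0 in mutant cells and further above 0 in full-length NFIA-expressing cells. None of 16 adipogenic transcription factors was called, and their median was 0.07. Pparg, which encodes PPARγ, was at 5.85, 5.32 and 6.68 FPKM in the 3 control samples and 8.56, 7.91 and 7.88 FPKM in the 3 mutant samples, a change of 0.39 ± 0.08 (SE), adjusted p = 0.00182 that is under 3-fold. Cebpa had means of 8.63 FPKM in control and 10.8 FPKM in mutant cells (adjusted p = 0.201), against 89 FPKM with full-length NFIA, and Klf5 fell by 0.98 on the log2 scale. Zfp423, on 26 control and 87 mutant fragments, changed by 0.27. Cidea and Ppargc1a, with 0.175 and 1.08 FPKM on average in control cells, differed by -0.15 and -0.03 (adjusted p = 0.247 and 0.761), and Ucp1 was listed at 0, with 0 fragments, in all 6 samples. Of 24 lipid droplet and triglyceride genes, 5 were called higher (Plin1, Mgll, Plin4, Gpd1 and Dgat2) and 15 were higher and 3 lower with an adjusted p-value under 0.05, with a median of 0.51, against 3.75 with full-length NFIA. Among all genes tested, 0.933% were called higher, and 21.3% were higher and 27.5% lower with an adjusted p-value under 0.05. Plin4 was at 8.32, 11.3 and 9.59 FPKM in the 3 control samples and 42.4, 32.7 and 33.5 FPKM in the 3 mutant samples, a change of 1.79 ± 0.11 (SE), adjusted p = 2.19e-06, and at 375 FPKM with full-length NFIA. Plin1, which coats the droplet, was at 2.98, 2.64 and 2.76 FPKM in the 3 control samples and 28.7, 11.8 and 9.93 FPKM in the 3 mutant samples, a change of 2.08, and at 344 FPKM with full-length NFIA. The differences of mutant minus full-length NFIA were -3.35 (adjusted p = 4.39e-09) for Plin4 and -4.42 (adjusted p = 4.43e-07) for Plin1. Of 15 genes of fatty acid uptake and synthesis, Fabp4 alone was called, and the median was 0.51, against 3.01 with full-length NFIA. With forskolin the lipid droplet list had a median of 0.23, with 1 gene called and 9 of 23 higher at an adjusted p-value under 0.05, and the fatty acid list a median of 0.22 with none called. Plin4 then changed by 1.78, and Plin1 by 0.53, which did not pass (adjusted p = 0.0822).

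Among 11 genes of adipocyte-secreted proteins, 6 were called higher (Agt, Rarres2, Angptl4, Cfd, Retn and Adipoq) and 1 lower, and the median was 1.75, against 5.01 with full-length NFIA. The shares called among all genes tested were 0.933% higher and 0.503% lower. Agt, angiotensinogen, was at 2.61, 2.58 and 2.5 FPKM in the 3 control samples and 42.6, 19.5 and 19.1 FPKM in the 3 mutant samples, a change of 2.88 ± 0.24 (SE), adjusted p = 1.09e-05. Rarres2, chemerin, was at 21.1, 22.6 and 27.9 FPKM in the 3 control samples and 166, 105 and 102 FPKM in the 3 mutant samples, a change of 2.31 ± 0.17 (SE), adjusted p = 4.97e-06, with 64.2 FPKM in full-length NFIA-expressing cells, a difference of mutant minus full-length NFIA of 0.91 (adjusted p = 8.74e-04). Angptl4, an inhibitor of lipoprotein lipase, changed by 2.02. Fgf21, a hormone made under metabolic stress, was lower, at 172, 162 and 196 FPKM in the 3 control samples and 30.3, 70.3 and 67.4 FPKM in the 3 mutant samples, a change of -1.73 ± 0.26 (SE), adjusted p = 4.05e-04, and was not called without replicate 1 of the mutant. With forskolin the median of the list was 0.38 and 2 genes were called higher. The changes were then 2.85 for Agt, 1.64 for Rarres2, 1.23 for Angptl4, 0.77 for Cfd, -1.28 for Fgf21, and 0.42 and 0.31 for Retn and Adipoq, which did not pass (adjusted p = 0.309 and 0.415).

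Several calls among adipocyte genes rested on replicate 1 of the mutant. It was the highest of the 3 mutant samples in 92 of the 115 genes called higher and in 5065 of all 12324 genes tested. Its median excess over replicates 2 and 3 was 0.46 for lipid droplet genes, 0.44 for fatty acid genes and 0.68 for adipocyte-secreted proteins, against 0.01 for all genes, 0.04 for thin filament genes and 0.01 for subunits of oxidative phosphorylation. Cfd, adipsin, was at 10.8, 1.88 and 2.27 FPKM in the 3 mutant samples and 0.142, 0.129 and 0.37 FPKM in the controls, and Adig at 13.3, 2.16 and 1.79 and 0.935, 1.69 and 1.48 FPKM. Without replicate 1, 3 lipid droplet genes, no fatty acid gene and 3 adipocyte-secreted proteins were called higher, and the changes of Fabp4, Gpd1 and Cfd were 1.09, 1.27 and 1.34. The pattern recurred with forskolin, where Fabp4 was at 386, 103 and 137 FPKM and C3 at 123, 34 and 27.6 FPKM in mutant replicates 1, 2 and 3. Whether same-numbered libraries with and without forskolin are linked was not tested. The changes with forskolin may therefore not be an independent repeat of those without it. Over all genes, 98 were called higher without replicate 1, of which 97 were among the 115. The interferon-stimulated genes had an excess of 0.54 in the same replicate.

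**Figure D4:**
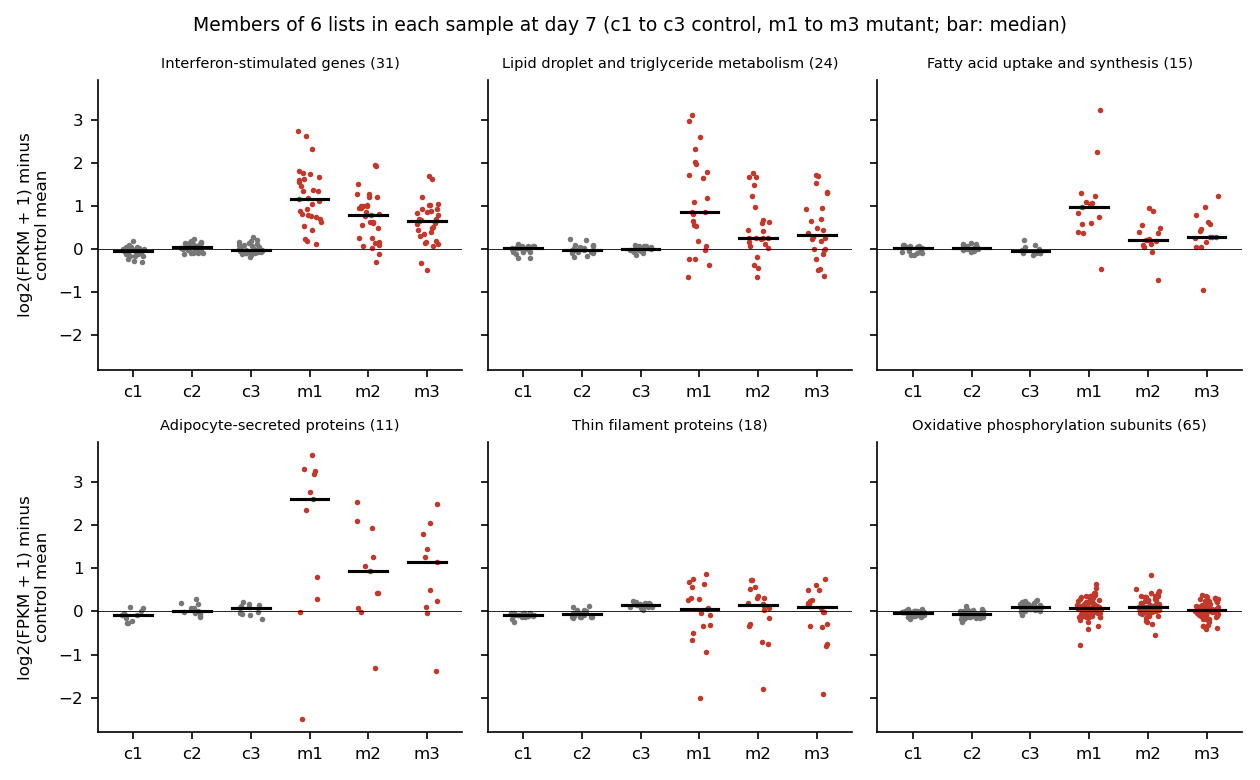
Members of 6 gene lists in each of the 6 samples at day 7 (vertical axes, log2 of FPKM + 1 minus the mean of the 3 control samples; c1 to c3 control and m1 to m3 mutant replicates), with 1 point for each gene and a bar at the median. The bar of m1 is above those of m2 and m3 for the interferon-stimulated and the 3 adipocyte lists, with a median excess of 0.44 to 0.68, and level with them for thin filament genes and subunits of oxidative phosphorylation.

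The remaining lists held few called genes, where 0.933% of all genes tested were called higher and 0.503% lower. Of 21 collagen chains, Col5a3 was called higher, at 2.82, 2.87 and 2.9 FPKM in the 3 control samples and 16.1, 18.9 and 17.2 FPKM in the 3 mutant samples, a change of 2.25 ± 0.07 (SE), adjusted p = 2.96e-08, and Col11a1 lower, by 1.85 on the log2 scale, with a median of -0.03. Of 11 Wnt ligands and antagonists, 1 was called in each direction: Sfrp4, a secreted antagonist, rose by 1.97 and Wnt10a, a ligand that restrains adipogenesis, fell by 1.79. Inhbb, the βB subunit of activins and inhibins, was at 40.5, 36.5 and 32.3 FPKM in the 3 control samples and 10.4, 11.3 and 10.6 FPKM in the 3 mutant samples, a change of -1.66 ± 0.08 (SE), adjusted p = 5.63e-07 that was just under 3-fold without replicate 1 of the control (-1.58), and the other 14 genes of the TGF-β superfamily were not called. Of 34 cell cycle genes none was called, 2 were higher and 2 lower with an adjusted p-value under 0.05, and the median was 0.04. The shares of all genes tested were 21.3% and 27.5%. None was called among 10 inhibitors of cyclin-dependent kinases and pocket proteins, 11 IGF ligands, receptors and binding proteins, 13 matrix metalloproteinases and inhibitors, 18 Notch pathway genes, 10 genes of the neuromuscular junction, 10 stress and immediate early genes and 5 brown fat genes. Cdkn1a, p21, fell by 0.50, and Cox8b and Cox7a1, mitochondrial subunits of brown fat and muscle, rose by 1.17 and 1.18. Nfic fell by 0.71 and Nfib by 0.40 on the log2 scale, and the difference of Nfix was -0.01 (adjusted p = 0.907).

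Endothelial and epithelial markers were low. None of the 5 endothelial and 6 epithelial markers reached the level for testing, and their summed FPKM was 0.0758 to 0.223 and 0.368 to 0.594 in control samples and 0.595 to 0.648 and 0.926 to 1.06 in mutant samples. The 9 leukocyte markers summed to 19.3 to 19.7 FPKM in control and 13.7 to 17.0 FPKM in mutant samples, and 2 and 3 of them were at 0 in every sample of the group. The 7 neural and Schwann markers summed to 3.52 to 4.58 and 8.78 to 9.51 FPKM. Of these, 3 of 4 tested were higher at an adjusted p-value under 0.05, beside 21.3% of all genes tested. The part of the endothelial, epithelial, leukocyte, neural and Schwann markers in the results above was not tested. The bone, cartilage and tendon markers had sums of 2192, 2504 and 2279 FPKM in control and 1104, 1070.0 and 1121 FPKM in mutant samples. Of the 7 tested, Bglap, osteocalcin, which has near-identical neighbours, changed by 3.12, and Spp1, osteopontin, the most abundant, fell by 1.10, from a mean of 2305 to 1071 FPKM.

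At day 0 most muscle genes were lower in mutant than in control cells. Of 87 genes of the sarcomere, calcium handling, neuromuscular junction and energy supply tested at both times, 80 were lower in mutant than in control cells at day 0 with an adjusted p-value under 0.05 and 47 were called lower, against 29.7% and 1.32% of all genes at day 0. At day 7, 2 of the 87 were called lower. The median change was -1.64 at day 0 and -0.09 at day 7. Mylpf was at 370.4, 317 and 332 FPKM in control and 16, 21.1 and 18.2 FPKM in mutant samples at day 0, and the 2 groups overlapped at day 7. The difference between the changes of day 7 and day 0, tested in the 18 samples of both times, passed with more than 3-fold for 293 of 12408 genes (2.36%). It did so for 38 of the 87 muscle genes in the upward direction and for 1, Tmod4, in the downward direction. Tcap, which was too low at day 0 to be among the 87, also passed in the downward direction (-1.81). Pdlim3, a Z-disc protein, had one of the 3 largest upward differences, 4.67, with C3 (4.98) and Sln (4.88). Of the mutant and control samples in this test, only the mutant ones at day 7 are among the later 15 libraries. The library number and these differences therefore cannot be told apart, and C3 is among the genes that split by library number. Of the genes called higher at day 7, 91 were tested at day 0, where 81 were higher with an adjusted p-value under 0.05 and 27 were called higher (32.5% and 0.859% of all genes at day 0). Of the genes called lower, 46 were tested at day 0, where 24 were lower and 8 higher with an adjusted p-value under 0.05.

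**Figure D5:**
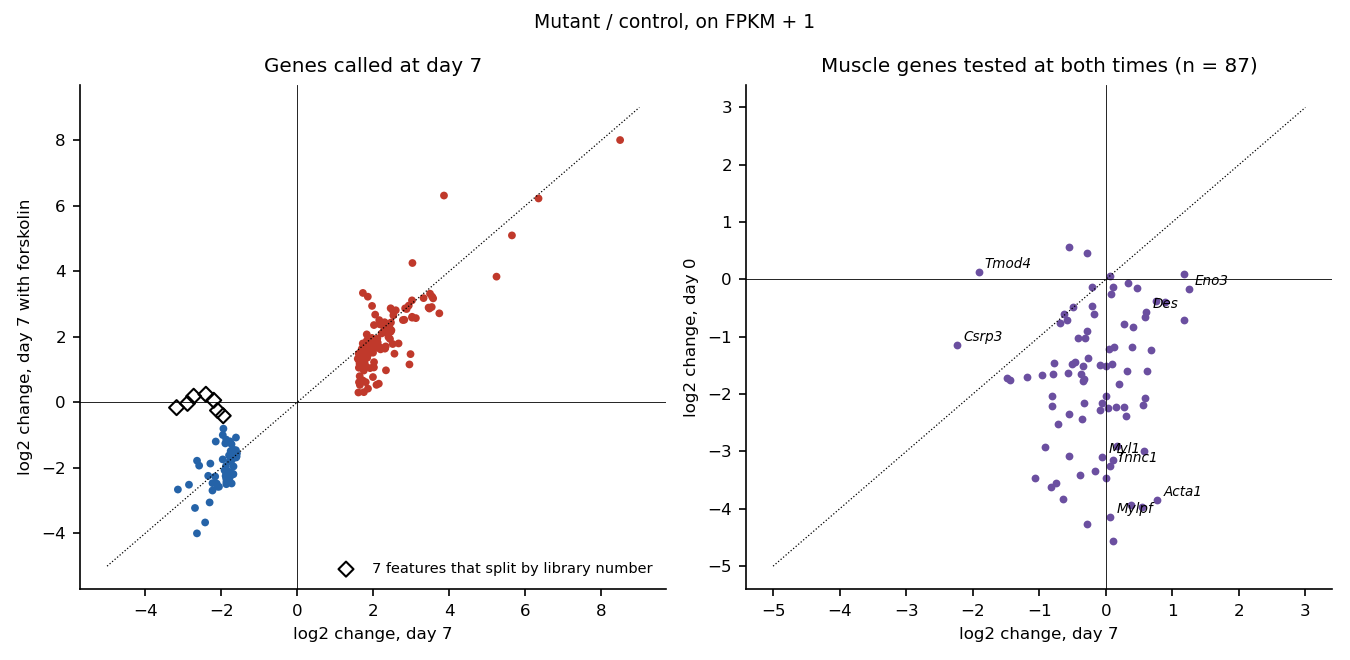
Left, change in mutant over control cells (log2 of FPKM + 1) at day 7 with forskolin against day 7 without it for the genes called at day 7, in red higher and in blue lower. Diamonds are the 7 features called lower that split by library number and did not pass with forskolin. Other called genes that split by library number, such as C3, are plain points. Right, change at day 0 against day 7 for 87 muscle genes. On the left, 3 of the diamonds lie above 0 on the vertical axis and every other point keeps its sign, and on the right most points are far under 0 at day 0 and near 0 at day 7. Dotted lines mark equal changes.

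The difference between the changes with and without forskolin passed with more than 3-fold for 26 of 12245 genes (0.212%), of which 7 split by library number (Rpl14-ps1, Gm48909, Gm15501, Rpl37rt, Gm6402, Gm15421 and Orm3). Of the mutant and control libraries in this test, only the controls without forskolin are among the first 12. The largest upward differences were in Fgl2, a fibrinogen-like protein (3.40), and Hdc, histidine decarboxylase (3.32), and the largest downward ones in the growth factor Igf1 (-2.11), the microRNA feature Mir1192 (-2.08) and the glutamate transporter Slc1a3 (-1.87). Igf1 was at 7.77, 6.99 and 5.92 FPKM in the 3 control samples and 16.4, 9.3 and 11.8 FPKM in the 3 mutant samples without forskolin and 13, 8.32 and 12 FPKM and 4.6, 3.37 and 3.05 FPKM with it, so that the mutant was higher without forskolin and lower with it. Gfpt2 changed by 6.31 with forskolin.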

How the data were processed

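The authors sequenced polyadenylated RNA of C2C12 cells from stranded libraries, aligned reads to mm9 with STAR 2.5.3a and, from unique reads on the matching strand, deposited FPKM of 24825 genes in each of 27 samples. Values were whole multiples of 1 step (100% within 0.1), from which fragments were worked back. Depth was 9567769 to 21941908 fragments per sample at day 7.

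The computations used R 4.3.3, limma 3.58.1, Python 3.11.15, pandas 2.3.3 and matplotlib 3.10.9. Log2(FPKM + 1) was fitted with group means over the 9 samples at day 7, for genes averaging at least 0.5 FPKM (lmFit, eBayes with trend). Adjusted p-values (Benjamini-Hochberg, 2-sided) are over all genes tested. Differences of changes were fitted to 18 samples. Steps were tested on simulated data.

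Genes named were the 10 largest rises and falls of called genes (mean FPKM at least 1, groups apart), in each of 35 lists up to 4 called and 2 abundant other members, 16 set genes, and the 3 largest differences each way. The lists and the comparison were chosen with earlier results of these data known. Positions are from GENCODE M1 (NCBI Build 37, the same assembly as mm9), promoters from RefSeq (GRCm38.p6).

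Alternatives were a pseudocount of 0.1, median-ratio scaling, no filter, a mean FPKM of 5, no trend, limma-voom on fragments, a replicate block, the 6 samples alone and each sample left out. The forskolin libraries were added after seeing the data. The labels' replicate numbers were not taken as pairs. A link by number was checked only between control and mutant samples at day 7 without forskolin. The main fits to 18 samples took all samples as independent. Intervals from fragments would cover counting error only and were not used.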

Additional observations from a re-analysis of the deposited data

Results flagged for a closer look

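The change between mutant and control cells differed between day 0 and day 7 by a test of the difference itself, with an adjusted p-value under 0.05 (limma) and more than 3-fold, for several of the genes chosen by the rules above. Of these, Sfrp2 and Fmod were not described above and were not called at day 7. On the log2 scale, the change at day 7 was above that at day 0 by these differences: C3 4.98, Sln 4.88, Pdlim3 4.67, Serping1 3.20, Hp 3.19, Ly6c2 2.89, Myl4 2.53, Ly6c1 2.49, Ccl5 2.10 and Angptl4 2.07. Smaller upward differences were found for Agt 2.03, Cfd 1.99, Bglap 1.93, Oasl2 1.91, Plin1 1.89, Myog 1.82, Myh2 1.74, Ckmt2 1.73 and Mymx 1.66. Among the mutant and control samples tested here, only the mutant ones at day 7 are in the later 15 libraries by number. Library number and these differences in either direction cannot be told apart, and C3 and Serping1 are among the genes that split by library number.

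The change at day 7 was below that at day 0 for Sfrp2 -4.05, Fmod -3.65, 4930486L24Rik -3.46, Rpl14-ps1 -3.06, Omd -3.01, Gm15501 -2.94, Gm48909 -2.78 and Ctla2b -2.69. It was also below for Adh1 -2.68, Col11a1 -2.14, Tmod4 -2.04, Inhbb -1.95, Cyp2f2 -1.86, Tcap -1.81, Hdc -1.67 and Itga8 -1.64. Rpl14-ps1, Gm15501 and Gm48909 are among the features that were high in the first 12 libraries by number and low in the later 15, and all day 0 libraries and the control libraries at day 7 are among the first 12.

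With forskolin the change was above that without it for Fgl2 3.40, Hdc 3.32, Rpl14-ps1 3.01, Gm48909 2.91, Gm15501 2.85 and Gfpt2 2.45. It was below for Igf1 -2.11, Mir1192 -2.08 and Slc1a3 -1.87. Hdc was at 0.164, 0.0495 and 0.107 FPKM in control and 0.553, 0.627 and 1.13 FPKM in mutant samples without forskolin and at 0.171, 0.224 and 0.229 and 15.8, 18.2 and 20.8 FPKM with it. A gap test for single samples needs at least 4 samples in a group and was not possible with 3.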

How the results depend on the processing

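With a pseudocount of 0.1, 278 genes rose and 139 fell past the thresholds, 1170 were called between the constructs, and 586 and 51 differed between day 0 and day 7 and with forskolin. With limma-voom on fragments these were 322, 157, 1267, 674 and 47. All 115 and 62 genes were kept with the pseudocount of 0.1, and 114 and 61 with limma-voom, where the cause of the larger counts was not tested. At a mean FPKM of 5 or more, where fewer genes are tested, 41 genes were called lower and 17 differed with forskolin. Leaving out 1 sample gave 98 to 125 genes higher, 60 to 68 lower, 4966 to 5920 with an adjusted p-value under 0.05, 744 to 801 between the constructs, 286 to 303 between day 0 and day 7 and 19 to 33 with forskolin. The Nfix log2 change, near 0, turned to 0.045 with median-ratio scaling and lay between -0.0593 and 0.076 with 1 sample left out (0.0043 without replicate 3 of the control), and the Ppargc1a log2 change between -0.078 and 0.027 (0.0052 without replicate 1 of the mutant). Of 1129 values for single genes, 10 fell under the threshold, each when 1 sample was left out. With the replicate block, 115 genes were called higher and 62 lower, the same genes. The deviations of same-numbered control and mutant samples had correlations of 0.0093, -0.17 and -0.17, so the numbers were not taken as pairs. The forskolin libraries gave 105 genes higher, 83 lower and 5650 with an adjusted p-value under 0.05. Median-ratio scaling moved the median of all genes from -0.04 to 0.01. Genes that averaged under 0.5 FPKM over the 9 samples at day 7 were not tested.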
